A study of Mus musculus with 26 samples.

Results

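The TET dioxygenase genes Tet1, Tet2 and Tet3 were followed through RNA sequencing of mouse GV oocytes, which are full-size oocytes whose nucleus, the germinal vesicle, is still intact in the first meiotic prophase. The members were the rows with these gene symbols, 3 of 24450 features other than spike-in sequences. All 3 passed the filter on low counts, which kept 11794 genes over all groups together.

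TET proteins oxidize 5-methylcytosine in DNA in steps, first to 5-hydroxymethylcytosine and then to 5-formylcytosine and 5-carboxylcytosine, which can be diluted by replication or removed by base excision repair. They use iron and 2-oxoglutarate, and their catalytic core lies in the C-terminal part of the protein. Tet3 is the TET gene known for its expression in oocytes and for the oxidation of the paternal genome after fertilization, while Tet1 and Tet2 are known from embryonic stem cells, primordial germ cells and blood.

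Libraries were made from pools of 10 oocytes. The labels describe them as biological replicates but name no animals, strain or age, so p-values measure the spread between these pools. LCD KO (n = 7; Tet3 LCD f/f; Zp3-Cre) had an allele of Tet3 whose low-complexity domain (LCD) is floxed, with Cre driven by the Zp3 promoter, which is active in growing oocytes. HD mutant (n = 5; Tet3 LCD HD Mut f/f; Zp3-Cre) carried an allele that the labels name LCD HD Mut; the sources used here do not define HD. DKO (n = 2; Dnmt3a f/f, Tet3 LCD f/f; Zp3-Cre) combined floxed Dnmt3a with the floxed LCD, and Dnmt3a KO (n = 2; Dnmt3a f/f; Zp3-Cre) carried floxed Dnmt3a alone. The group labelled Tet3 KO (n = 2; Tet3 f/f; Zp3-Cre) carried floxed Tet3. WT (n = 6; Tet3 LCD f/f) had the floxed LCD without Cre, so that LCD KO, DKO and WT all share that allele. A further 2 columns were labelled with floxed Tet1, Tet2 and Tet3 and Zp3-Cre (TKO). They were identical to the labelled Tet3 KO columns in all 24542 features. They were counted once, under the label Tet3 KO, so no separate measurement of a triple knockout was analysed here. Which genotype these columns hold is not settled by the sources used here. The labels place WT and LCD KO in each of 3 batches, HD mutant 1 to 3 in batch 2, and DKO, Dnmt3a KO and labelled Tet3 KO in batch 3, and they give no batch for HD mutant 4 and 5.

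Total counts ranged from 1838824 to 7833087 per library, with batch 2 the deepest at 5403852 or more. The Cre row of the table held 38 to 89 counts in each labelled Zp3-Cre library outside batch 2, but 0 counts in LCD KO 4 and 5 and HD mutant 1 to 3, the 5 labelled Zp3-Cre libraries of batch 2, and in all 6 WT libraries. Tet3 in LCD KO and in DKO against WT, and Tet1 in labelled Tet3 KO against LCD KO, are therefore also given without batch 2. Dnmt3a, the gene targeted in Dnmt3a KO and DKO, was at 105 and 143 CPM (counts scaled to library size) in the libraries labelled Tet3 KO, a genotype that names no Dnmt3a allele, at 107 and 132 CPM in Dnmt3a KO and at 237 to 620 CPM in WT. Oocyte markers summed to 18099 CPM or more in every library, and the 10 granulosa or cumulus markers to 69.2 to 352 CPM. The 5 theca or stroma markers summed to at most 5.67 CPM. The 6 blood or immune markers summed to 0.346 to 3.69 CPM, with Cd68 at up to 13 counts and Csf1r at up to 11, while Hbb-b1 and Hba-a1 were at 0 counts in all libraries.

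The gene models show what a count per gene can and cannot resolve. In GENCODE M21 on GRCm38, Tet1 (ENSMUSG00000047146.17) lies on the minus strand at chr10:62804570-62908996, Tet2 (ENSMUSG00000040943.12) on the minus strand at chr3:133463679-133545139, and Tet3 (ENSMUSG00000034832.15) on the minus strand at chr6:83362373-83459084. The authors counted on mm9, so these coordinates describe the genes. With the counts, only the summed exon lengths of these models were used, for levels per kilobase. The transcripts with the longest coding sequence had 13 exons in Tet1, 12 in Tet2 and 12 in Tet3. This Tet3 transcript was 5944 bases long, of which its largest exon made up 36.3% and its last exon 30.0%. All annotated Tet3 exons together cover 16695 bases, so these are shares of 1 transcript and not of the gene count. The files give 1 count per gene, and the sources used here do not place the floxed LCD within it. Reads missing from a deleted stretch of Tet3 and a lower level of its whole transcript cannot be told apart. Nor can fewer oocytes with the transcript be told from less transcript in each oocyte of a pool.

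**Figure D1:**
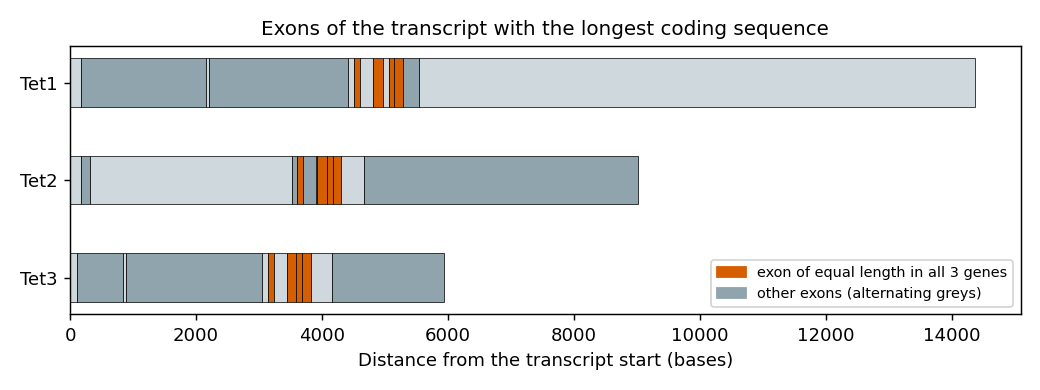
Exons of the transcript with the longest coding sequence of each TET gene, drawn to scale from the transcript start (horizontal axis, bases), with the 4 exons that have the same length in all 3 genes in orange. The shared-length exons lie next to or near each other ahead of a long last exon. The Tet3 transcript drawn here, at 5944 bases, is the shortest of the 3 drawn. All annotated exons of Tet3 together cover 16695 bases.

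The 3 genes share an exon architecture but few stretches of identical sequence. A set of 4 exons, of 94, 151, 90 and 138 bases, has the same length in all 3 genes. The 138-base exon codes for a part of the catalytic domain and is printed here, 5′ to 3′ on the coding strand, because it shows how far the members can be told apart by reads. It is exon 11 of Tet1 (chr10:62814436-62814573), exon 10 of Tet2 (chr3:133471340-133471477) and exon 10 of Tet3 (chr6:83373194-83373331), all on the minus strand of GRCm38. Capitals mark bases that are identical in all 3 genes, 75 of 138 or 54.3%.
Tet1: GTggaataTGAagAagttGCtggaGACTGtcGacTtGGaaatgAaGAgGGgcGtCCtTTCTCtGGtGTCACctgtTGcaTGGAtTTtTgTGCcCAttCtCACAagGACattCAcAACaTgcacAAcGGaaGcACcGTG
Tet2: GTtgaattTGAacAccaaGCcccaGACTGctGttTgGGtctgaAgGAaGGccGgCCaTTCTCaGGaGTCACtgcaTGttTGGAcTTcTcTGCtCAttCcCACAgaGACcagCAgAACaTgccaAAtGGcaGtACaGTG
Tet3: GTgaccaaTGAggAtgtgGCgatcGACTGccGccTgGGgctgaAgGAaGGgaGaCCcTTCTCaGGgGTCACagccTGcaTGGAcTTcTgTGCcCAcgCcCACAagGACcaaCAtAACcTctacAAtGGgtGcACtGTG
In this exon 63.8% of bases were identical between Tet1 and Tet2, and 66.7% between Tet3 and each of the others. Over the 3 transcripts with the longest coding sequence, the longest run of identical bases was 17 between Tet1 and Tet3. It was 16 between Tet1 and Tet2 and 13 between Tet2 and Tet3, against read lengths of 150 bases. Annotated exon sequence outside these transcripts was not searched.

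Tet3 was by far the most abundant of the 3 transcripts. Per kilobase of annotated exon sequence, WT oocytes held 14.9 ± 5.72 CPM of Tet3, 0.265 ± 0.142 CPM of Tet1 and 0.216 ± 0.0713 CPM of Tet2 (SD, n = 6). Tet3 thus made up 93.3% to 99.2% of the summed TET level per length in WT, with a median of 96.5%. Depth limits the 2 minor genes: Tet1 had 3 to 50 counts per library, Tet2 5 to 45 and Tet3 107 to 2380. The 95% Clopper-Pearson bounds, which cover counting error only, differed by 1.78-fold to 14.2-fold for Tet1 within a library, by 1.83-fold to 7.19-fold for Tet2 and by at most 1.47-fold for Tet3.

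Tet3 was lower in LCD KO than in WT in each batch. In batch 1 it was at 59.1, 43.9 and 46.8 CPM in LCD KO, against 267, 183 and 236 CPM in WT. Batch 2 had higher levels in both groups, 164 and 200 CPM in LCD KO and 427 CPM in its 1 WT library. In batch 3 it was at 54.3 and 73.9 CPM in LCD KO, against 157 and 219 CPM in WT. The groups did not overlap within any batch, but across batches the LCD KO libraries of batch 2 reached the range of WT. Over all libraries Tet3 averaged 91.6 ± 63.1 CPM in LCD KO (SD, n = 7; median 59.1) and 248 ± 95.6 CPM in WT (n = 6; median 228).

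With batch in the model, the log2 fold change of Tet3 in LCD KO was -1.78 ± 0.21 (95% interval -2.22 to -1.34; edgeR quasi-likelihood F test, Benjamini-Hochberg adjusted p = 6.32e-06). That left 29.1% of the WT level (95% interval 21.4% to 39.6%). Of all genes tested, 18.3% were called in this comparison at an adjusted p below 0.05, 9.44% lower and 8.89% higher in LCD KO. Among the members, Tet3 was called and Tet1 and Tet2 were not. Without batch 2 the log2 fold change was -1.93 ± 0.18 (adjusted p = 1.47e-07). The level in LCD KO was 21.8% of WT in batch 1, 42.6% in batch 2 and 34.0% in batch 3, from means of CPM.

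In batches fitted alone, the log2 fold change of Tet3 was -2.17 ± 0.17 in batch 1 (adjusted p = 8.64e-07) and -1.55 ± 0.27 in batch 3 (adjusted p = 0.00977) by the same test. Of all genes, 2851 of 9420 were called in batch 1 alone and 88 of 11160 in batch 3 alone. Batch 2 alone, with 1 WT library, gave -1.20 ± 0.49 and was not called. A model with an interaction of LCD KO and batch, chosen after the data were seen, tested whether the fall differed in size among batches. Batch 1 minus batch 2 gave -0.95 ± 0.32 on the log2 scale for Tet3 (adjusted p = 0.119), where 0.796% of the 10045 genes tested were called, and the test for any difference among the 3 batches had an adjusted p of 0.173. No member was called in that second test, and 0.836% of genes were.

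**Figure D2:**
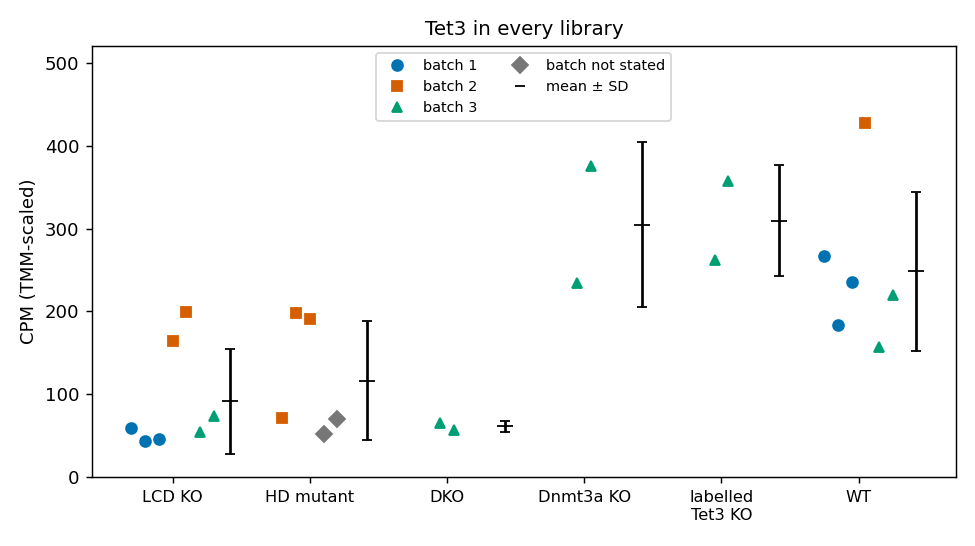
Tet3 in each library, in CPM scaled with TMM factors (vertical axis), by group, with marker shape and colour for the batch and a bar for the mean ± SD of the group. The 7 LCD KO, 5 HD mutant and 2 DKO libraries lie between 43.9 and 200 CPM, and batch 2 (squares) lies above the other batches of LCD KO and WT.

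Tet3 was also lower in HD mutant, with libraries that disagreed among themselves. HD mutant 1, 2 and 3 of batch 2 had 72.04, 198 and 191 CPM, and HD mutant 4 and 5, for which no batch is stated, 52.0 and 70.7 CPM. WT had 427 CPM in batch 2 and 157 to 267 CPM in the other batches. HD mutant 1 thus lay near HD mutant 4 and 5 rather than near the other libraries of its own batch. The mean was 117 ± 71.3 CPM in HD mutant (SD, n = 5) and 248 ± 95.6 CPM in WT (n = 6).

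The fit with batch used HD mutant 1 to 3 and gave a log2 fold change of -1.86 ± 0.33 for Tet3 against WT (95% interval -2.55 to -1.17; edgeR, adjusted p = 0.00149), or 27.6% of the WT level. In this comparison 7.83% of all genes were called, 3.75% lower and 4.08% higher. Without HD mutant 1 the value was -1.52 ± 0.28 (adjusted p = 0.00138), where 384 of 11743 genes were called. HD mutant 4 and 5 in place of 1 to 3, without a batch term, gave -2.02 ± 0.57 (edgeR, adjusted p = 0.0224). That alternative, chosen after the data were seen, called 1977 of all 11702 genes. The comparison of HD mutant with WT rests on a single WT library wherever it is made within batch 2. Batch 2 alone gave -1.44 ± 0.45 and was not called.

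HD mutant and LCD KO could not be separated by Tet3. The log2 difference was -0.080 ± 0.30 (95% interval -0.70 to 0.54; edgeR, adjusted p = 0.941), an interval that still allows 61.6% to 145% of the LCD KO level. It was 0.26 ± 0.24 without HD mutant 1 (adjusted p = 0.939). Of all genes, 2.08% were called between these groups.

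Floxed Dnmt3a, which codes for the enzyme that sets new methylation in growing oocytes, in combination with the floxed LCD gave a Tet3 level close to that of LCD KO. All libraries concerned come from batch 3. DKO had 65.7 and 57.1 CPM of Tet3 and LCD KO 54.3 and 73.9 CPM, against 157 and 219 CPM in WT. DKO lay within the range of LCD KO and below both WT libraries. The log2 fold change of Tet3 in DKO against WT was -1.73 ± 0.36 (95% interval -2.48 to -0.98; edgeR, adjusted p = 0.00748), where 3.79% of all genes were called. That call was lost without DKO 1 (-1.83, adjusted p = 0.0684) or without DKO 2 (-1.63, adjusted p = 0.103), when DKO is represented by a single library assumed to vary like the other groups. Without batch 2, DKO gave -1.81 ± 0.27 (adjusted p = 0.000196).

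Against Dnmt3a KO, the control that shares the Dnmt3a allele, the fall was -2.31 ± 0.38 on the log2 scale (95% interval -3.11 to -1.51; edgeR, adjusted p = 0.00227), or 20.2% of the Dnmt3a KO level, with 1.99% of all genes called. DKO and LCD KO differed by 0.051 ± 0.34 (95% interval -0.66 to 0.76; adjusted p = 0.991), where 0.314% of genes were called. Whether the LCD effect on Tet3 depended on Dnmt3a was tested as DKO minus Dnmt3a KO set against LCD KO minus WT. By the labels these 2 steps are not the same. The first adds the floxed LCD with Cre in both groups, and the second adds Cre with the LCD floxed in both. The first minus the second was -0.53 ± 0.43 (95% interval -1.42 to 0.35, edgeR adjusted p = 0.828), and 0.0678% of genes were called in that test. A dependence of the LCD effect on Dnmt3a was not detectable at this number of libraries.

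Dnmt3a KO alone had 235 and 375 CPM of Tet3, against 157 and 219 CPM in WT of the same batch. Both Dnmt3a KO libraries lay above both WT libraries of batch 3 but within the range of all WT libraries. The log2 fold change was 0.58 ± 0.33 (95% interval -0.10 to 1.27; edgeR, adjusted p = 0.478), so it did not pass the threshold, with 0.755% of all genes called.

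The libraries labelled Tet3 KO held the most Tet3 of batch 3 on average. They had 262 and 357 CPM (1134 and 1461 counts), against 157 and 219 CPM in WT of that batch. Both values exceeded both WT libraries of batch 3 and neither was near the low levels of LCD KO. The log2 fold change against WT was 0.60 ± 0.33 (95% interval -0.08 to 1.28; edgeR, adjusted p = 0.650), with 1.37% of all genes called. Against LCD KO it was 2.38 ± 0.32 (95% interval 1.71 to 3.05; adjusted p = 7.4e-05), a 5.21-fold higher level, where 7.59% of all genes were called. The files hold no count per exon, so a transcript that lost single exons of Tet3 would not be seen here. Dnmt3a was lower in the same libraries, by 1.48 ± 0.20 on the log2 scale against WT (adjusted p = 4.1e-05). In Dnmt3a KO its log2 fold change was -1.53 ± 0.20 (adjusted p = 6.56e-05). The low Dnmt3a level thus goes against the label Tet3 KO. The Tet3 level cannot decide on the label, because a loss of single exons would not be seen. The directions below are those of the libraries labelled so.

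Within batch 3 the mean Tet3 level ran from 61.4 CPM in DKO and 64.1 CPM in LCD KO to 305 CPM in Dnmt3a KO and 310 CPM in the libraries labelled Tet3 KO, with 188 CPM in WT between these pairs. DKO and LCD KO overlapped, as did Dnmt3a KO and the labelled Tet3 KO. WT and Dnmt3a KO were neighbours that did not overlap, and their difference did not pass the test above.

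Tet1 stayed low in all groups. In LCD KO it was at 3.27, 5.33 and 4.42 CPM in batch 1, 3.56 and 2.26 CPM in batch 2, and 11.4 and 4.77 CPM in batch 3. In WT it was at 5.18, 3.14 and 3.12 CPM in batch 1, 1.08 CPM in batch 2, and 7.54 and 4.55 CPM in batch 3. The groups overlapped in batches 1 and 3, and the log2 fold change was 0.48 ± 0.29 (95% interval -0.12 to 1.07; edgeR, adjusted p = 0.265). LCD KO 6, at 11.4 CPM or 36 counts, stood above all other libraries of all groups.

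The largest Tet1 difference against WT was in HD mutant, and its call was lost without any 1 of 9 libraries. HD mutant 1, 2 and 3 had 5.04, 4.0 and 6.20 CPM of Tet1, against 1.08 CPM (6 counts) in WT 4, the 1 WT library of batch 2. All 3 lay above that library but within the range of the other WT libraries. The log2 fold change was 1.47 ± 0.44 (95% interval 0.57 to 2.37; edgeR, adjusted p = 0.0366). Without WT 4 it was 1.08 ± 0.50 (adjusted p = 0.198), and leaving out WT 2, 3 or 6, LCD KO 2, 5 or 6, or HD mutant 1 or 3 also ended the call, with adjusted p between 0.0538 and 0.1003. HD mutant 4 and 5 had 1.45 and 4.02 CPM, and in their place and without a batch term the log2 fold change was -0.59 (adjusted p = 0.576). Against LCD KO, Tet1 in HD mutant differed by 0.99 ± 0.38, below the threshold (adjusted p = 0.242).

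DKO had 4.28 and 4.01 CPM of Tet1 and Dnmt3a KO 4.41 and 5.79 CPM, with log2 fold changes against WT of -0.49 ± 0.46 (edgeR, adjusted p = 0.628) and -0.17 ± 0.44 (adjusted p = 0.911). The libraries labelled Tet3 KO had the lowest Tet1 of batch 3, at 2.77 and 2.69 CPM (12 and 11 counts). The same columns are also labelled TKO, with floxed Tet1, so this level cannot be assigned to floxed Tet3 alone. WT of that batch had 7.54 and 4.55 CPM and LCD KO 11.4 and 4.77 CPM, so the labelled Tet3 KO lay below both. The difference was -1.09 ± 0.47 against WT (edgeR, adjusted p = 0.426) and -1.57 ± 0.47 against LCD KO (95% interval -2.52 to -0.61; adjusted p = 0.0375). The second value fell below the threshold without LCD KO 6, the library high in Tet1 (-1.22, adjusted p = 0.173). It did so as well without WT 2 or 5 or without either labelled Tet3 KO library (adjusted p 0.0507 to 0.206), and it was -1.47 ± 0.46 without batch 2 (adjusted p = 0.0421).

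Tet2 was called in 0 of the 10 comparisons by edgeR and in 0 by DESeq2, and 1 of them had an unadjusted edgeR p below 0.05. It was at 2.54 to 6.15 CPM in LCD KO (median 3.68, n = 7), at 2.36 to 5.17 CPM in HD mutant (n = 5) and at 2.33 to 5.46 CPM in WT (median 3.64, n = 6). DKO had 5.29 and 4.34 CPM and Dnmt3a KO 2.57 and 5.15 CPM. These ranges overlapped throughout, and the log2 fold change of LCD KO against WT was 0.21 ± 0.29 (95% interval -0.39 to 0.81; edgeR, adjusted p = 0.666). That interval allows 76.2% to 176% of the WT level, so changes within it were not detectable at this depth. The libraries labelled Tet3 KO had 5.54 and 8.31 CPM of Tet2 (24 and 34 counts), the highest mean of all groups, against 3.14 and 4.28 CPM in WT of batch 3. Their log2 fold change was 0.98 ± 0.43 against WT (95% interval 0.099 to 1.86) and did not pass the threshold (edgeR, adjusted p = 0.440).

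**Figure D3:**
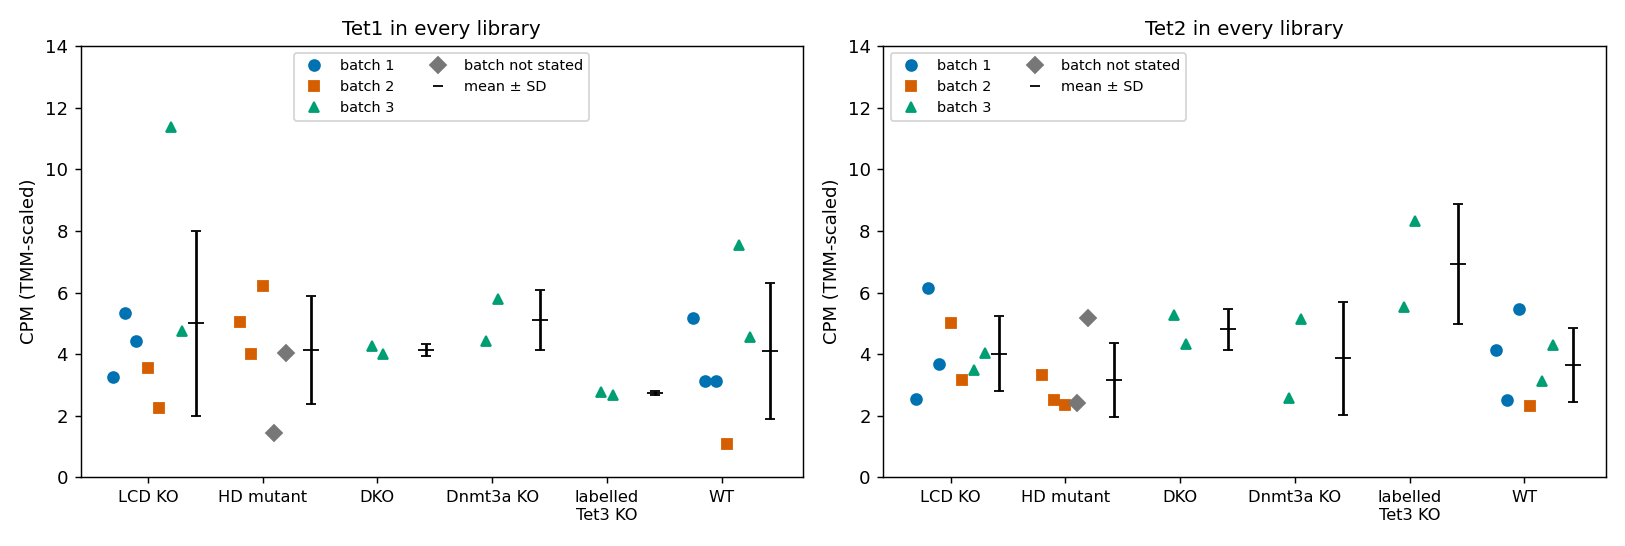
Tet1 (left) and Tet2 (right) in each library, in CPM scaled with TMM factors (vertical axes, same scale), by group, with marker shape and colour for the batch and a bar for the mean ± SD. LCD KO overlaps WT for both genes. LCD KO 6 is the highest for Tet1 at 11.4 CPM, and the libraries labelled Tet3 KO have low Tet1 (2.77 and 2.69 CPM) and high Tet2 (5.54 and 8.31 CPM).

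**Figure D4:**
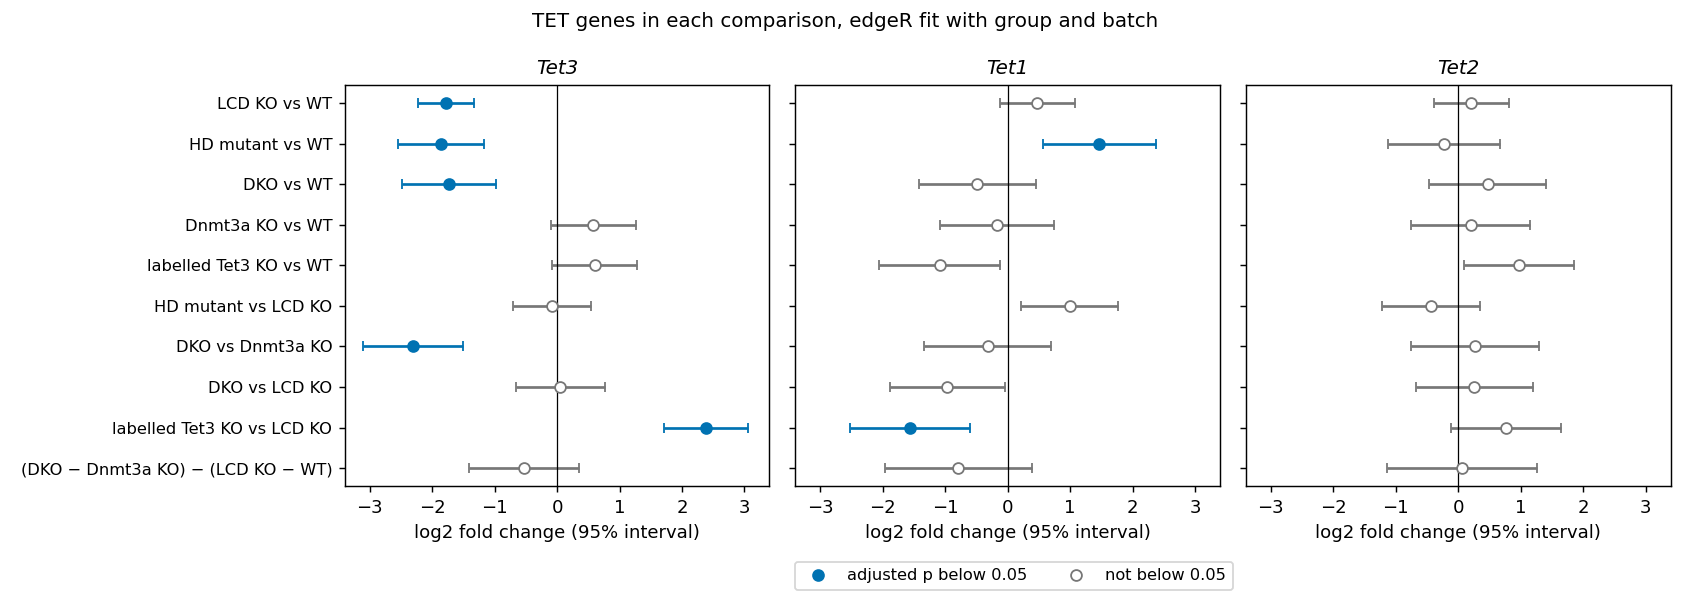
Log2 fold change (horizontal axes) of Tet3, Tet1 and Tet2 in the 10 comparisons, as points with 95% intervals from the edgeR fit with group and batch; filled points have an adjusted p below 0.05. Tet3 is lower in LCD KO, HD mutant and DKO, at -1.78, -1.86 and -1.73 against WT, and no Tet2 point is filled.

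The TET genes also differed between batches. In the same fit, Tet3 was 1.46 ± 0.26 higher on the log2 scale in batch 2 than in batch 1 (edgeR, adjusted p = 5.8e-05) and 1.45 ± 0.28 higher than in batch 3 (adjusted p = 0.000221). Batch 3 minus batch 1 was 0.014 ± 0.24 (adjusted p = 0.972). Tet1 ran the other way, at -0.90 ± 0.37 for batch 2 minus batch 1 (adjusted p = 0.0442) and -1.67 ± 0.37 for batch 2 minus batch 3 (adjusted p = 0.000655). Tet2 was not called between any pair of batches, with -0.24 for batch 2 minus 1, -0.10 for 3 minus 1 and -0.13 for 2 minus 3. Of all genes, 48.6% were called between batches 2 and 1, 31.6% between 3 and 1, and 47.2% between 2 and 3. HD mutant 1 to 3 shared their batch with 1 WT and 2 LCD KO libraries only.

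The make-up of the TET transcripts followed Tet3. Per length, Tet3 made up 77.6% to 97.3% of the TET sum in LCD KO (median 89.0%), 88.2% to 96.7% in HD mutant and 86.9% to 87.0% in DKO. It made up 97.0% to 97.1% in Dnmt3a KO, 96.9% to 97.0% in the libraries labelled Tet3 KO and 93.3% to 99.2% in WT. Tet3 was above Tet1 and above Tet2 in every library, by at least 4.42-fold over Tet1 and at least 7.21-fold over Tet2. Tet1 and Tet2 had no fixed order: Tet1 was the higher of them per length in 14 of 24 libraries, in 4 of 7 LCD KO and 4 of 6 WT libraries and in 0 of 2 labelled Tet3 KO libraries.

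The genes whose pattern was most like that of Tet3 were Arid1a, Lrp6, Fat1, Stard5 and Ankrd6, the 5 highest Pearson correlations among 11793 other genes. The correlations were taken over the 22 libraries with a stated batch, on log2 CPM with the batch means removed, and are a description: the points share groups and batches. They were 0.932 for Arid1a, a subunit of the BAF chromatin remodelling complex, 0.930 for Lrp6, a co-receptor for Wnt ligands, and 0.928 for Fat1, an atypical cadherin. They were 0.926 for Stard5, a lipid-binding START domain protein, and 0.923 for Ankrd6. Within groups the correlation stayed high for Fat1 (0.937) and was 0.323 for Stard5. Tet1 had -0.58 and Tet2 0.20 with Tet3 on the same scale.

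The levels of these genes had the same order of groups in part. Stard5 had 2.86 to 24.8 CPM in LCD KO (median 3.63), 4.03 and 4.68 CPM in DKO and 11.6 to 46.3 CPM in WT (median 32.6). Its log2 fold change was -2.24 ± 0.25 in LCD KO, -2.11 ± 0.35 in HD mutant and -1.88 ± 0.44 in DKO, with edgeR adjusted p-values of 7.51e-07, 0.000378 and 0.0140. Arid1a fell by 0.87 ± 0.15 in LCD KO (adjusted p = 0.000196) and had -0.45 ± 0.24 in DKO (adjusted p = 0.333). Against WT, none of the 5 was called in labelled Tet3 KO, with log2 fold changes of 0.083 to 0.59. These tests use the values that the correlation used and are not separate evidence of likeness.

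The other genes of the methylcytosine oxidation pathway were followed as a list of 32, of which 27 passed the filter. In LCD KO, 3 were higher and 2 lower than in WT, a share of 18.5% of those measured, against 18.3% of all genes. Idh1, which makes 2-oxoglutarate in the cytosol, rose by 1.06 ± 0.16 on the log2 scale (edgeR, adjusted p = 6.1e-05). Mbd4, a glycosylase that acts on mismatches at methylated CpG sites, rose by 0.72 ± 0.19 (adjusted p = 0.00802), and Apex1, the endonuclease that cuts abasic sites, by 0.34 ± 0.12 (adjusted p = 0.0427). Dnmt1, the maintenance methyltransferase, fell by 0.59 ± 0.18 (adjusted p = 0.0216) and Ddb1, an adaptor of CUL4 ubiquitin ligases, by 0.62 ± 0.18 (adjusted p = 0.0207). The median log2 fold change was -0.15 over the list and -0.023 over all genes tested. The count of 5 became 2 without WT 1, LCD KO 1 or LCD KO 2, 3 without LCD KO 3 and 9 without WT 5. Of all genes, 1685 of 11774 were called without WT 1 and 2309 of 11775 without WT 5. Batch 1 fitted alone called 10 of 24 measured list genes, 4 higher and 6 lower, and 2851 of all 9420 genes. Batch 3 alone called 0 of 27 list genes by edgeR, with 1 at an unadjusted p below 0.05, and 88 of all 11160 genes. Batch 2 alone, with 1 WT library, had a median log2 fold change of -0.044 over its 30 measured list genes and 0.025 over all genes. The summed theca or stroma markers were at 2.60 to 5.37 CPM in LCD KO and 0.346 to 2.20 CPM in WT, and the granulosa or cumulus markers at 84.7 to 352 CPM in LCD KO and 69.2 to 126 CPM in WT. Dcn led the theca or stroma list and Inha reached 292 CPM in LCD KO 2. Of the other granulosa or cumulus markers, Foxl2 had 0 counts in 17 libraries, Has2 in 13, Amh in 10 and Fshr in 8. Cyp19a1 was at 20.1 to 35.8 CPM over all libraries. The part of theca, stroma or granulosa cells in the LCD KO results was not tested.

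In HD mutant, Mbd4 was higher (0.94 ± 0.29; edgeR, adjusted p = 0.0467) and Dnmt3l, the cofactor of Dnmt3a in oocytes, lower (-0.70 ± 0.21, adjusted p = 0.0402). These 2 genes were 7.41% of the 27 measured, no more than the 7.83% of all genes. That count of 2 was 1 or 0 without any of WT 1, 2, 3 or 4, LCD KO 1, 2 or 5, either DKO, HD mutant 1 or either labelled Tet3 KO library. The theca or stroma markers summed to 2.30 to 5.67 CPM in HD mutant and 0.346 to 2.20 CPM in WT, and the part of such cells in the HD mutant results was not tested. In DKO, Idh1 was higher (1.39 ± 0.25, adjusted p = 0.0013) and the floxed Dnmt3a lower (-1.81 ± 0.20, adjusted p = 2.79e-06). They were 7.41% of the list, against 3.79% of all genes, and the count was 1 without DKO 2. Dnmt3a was the 1 list gene called in Dnmt3a KO and in labelled Tet3 KO, 3.7% of the list against 0.755% and 1.37% of all genes, and the count for Dnmt3a KO was 2 without WT 5 or HD mutant 1. Tdg, the glycosylase that removes formylated and carboxylated cytosine, had 0 counts in all 24 libraries. The sources used here do not say how reads with several alignments were counted, and no level was drawn from that 0. Cxxc4, Idh2, D2hgdh and Neil1 also did not pass the filter.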

How the data were processed

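The authors deposited 1 table of raw counts, with a row per gene symbol and no normalization. The submitters' processing notes name Trim Galore 0.5.0, HISAT2 2.1.0, featureCounts 1.6.4 and the build mm9. Annotation, strandedness and multi-mapping settings are not given in the sources used here. The table had 26 columns and 24542 features; 92 spike-in rows, with 1 count in all, were left out. The 2 TKO columns repeated the labelled Tet3 KO columns and were dropped, which left 24 libraries; the 49 other pairs of libraries of 1 group differed beyond sampling noise (lowest chi-square over its degrees of freedom 3.36). Library totals spanned 3329734 to 4309573 counts (batch 1), 5403852 to 7833087 (batch 2) and 2558479 to 4144414 (batch 3), and were 1838824 and 2242310 in HD mutant 5 and 4.

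Groups were compared in edgeR 4.0.16 by its quasi-likelihood F test (R 4.3.3; TMM, filterByExpr by group, robust) modelling group and batch in the 22 libraries that have a batch label, on 11794 genes, with 14 residual degrees of freedom. P-values were Benjamini-Hochberg adjusted over all genes tested, and genes with an adjusted p below 0.05 were called. Fold changes are on the log2 scale ± standard error, first-named group over the other. HD mutant 4 and 5 enter levels and fits without batch only. CPM were computed from counts and TMM factors. Levels per kilobase used union exon lengths of 15457 (Tet1), 16870 (Tet2) and 16695 (Tet3) bases. These lengths come from GENCODE M21 on GRCm38, another build than the mm9 of the counts. Likeness used log2 CPM (prior count 2) after removeBatchEffect of limma 3.58.1, keeping group. Alternatives were DESeq2 1.42.0, library size alone, no filter, no batch term, a replicate block, single batches and leaving out each library. The test was checked on counts simulated for LCD KO against WT only, without batch differences. Other comparisons, among them those with groups of 2, were not covered by that check.

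The members, the pathway and marker lists and the tests were chosen with earlier results of these data known. Genes were named by rule: the 3 members, the 5 genes most correlated with Tet3, and list genes called in LCD KO, HD mutant or DKO against WT. Leaving out batch 2, using HD mutant 4 and 5 only and the interaction of LCD KO and batch were added after the data were seen. Sequences come from GENCODE M21 transcripts (GRCm38).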

Additional observations from a re-analysis of the deposited data

Results flagged for a closer look

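Tet1 in LCD KO 6 was at 11.4 CPM (36 counts), far above the other 6 LCD KO libraries, which lay between 2.26 and 5.33 CPM. Its gap to the nearest of them exceeded Dixon's 95% critical value for 7 samples, a rule that takes the LCD KO libraries as 1 set and ignores their 3 batches. LCD KO 6 is from batch 3, which had the highest fitted Tet1 level of the batches, in a fit that includes LCD KO 6. In that batch LCD KO 7 had 4.77 CPM, WT 7.54 and 4.55 CPM, and the other groups 2.69 to 5.79 CPM. Batch 2 minus batch 3 was -1.67 ± 0.37 on the log2 scale (edgeR, adjusted p = 0.000655). Of 9 sets of libraries looked at in this way (3 genes in LCD KO, HD mutant and WT), 1 stood out, where chance marks about 1 in 20. In the same library Tet3 was at 54.3 CPM, Tet2 at 3.47 CPM and the granulosa transcript Inha at 8.19 CPM.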

How the results depend on the processing

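Of 876 alternative values for the 3 members over 10 comparisons, 819 kept their direction and their side of the threshold, 30 kept the direction but missed the threshold and 27 changed sign. Only results called in the main fit could miss the threshold, so the 819 include values that were uncalled in both fits. The fall of Tet3 in LCD KO missed the threshold only in batch 2 alone (-1.20). Without a batch term, log2 fold changes were -1.08 for Tet3 in HD mutant, -2.01 in DKO, -2.31 in DKO against Dnmt3a KO and 1.75 in labelled Tet3 KO against LCD KO, none called; 0.35 and -0.58 for Tet3 in HD mutant and DKO against LCD KO; and for Tet1 0.085 in HD mutant, 0.035 in DKO, 0.34 in Dnmt3a KO, -0.19 in HD mutant against LCD KO and -0.84 in labelled Tet3 KO against LCD KO. Batch 2 alone gave -1.44 for Tet3, 2.25 for Tet1 and 0.25 for Tet2 in HD mutant, and batch 3 alone -0.056 for Tet3 in DKO and -1.53 for Tet1 in labelled Tet3 KO, both against LCD KO. HD mutant 4 and 5 gave Tet1 -0.59 and Tet2 0.057 against WT, and Tet1 -0.86 against LCD KO. Leaving out single libraries gave, for Tet1, 1.08 to 1.79 in HD mutant, -0.40 to 0.049 in Dnmt3a KO and -1.88 to -1.22 in labelled Tet3 KO against LCD KO; for Tet2, -0.56 to 0.027 in HD mutant, -0.44 to 0.56 in Dnmt3a KO, -0.087 to 0.91 in DKO against Dnmt3a KO and -0.30 to 0.69 for the LCD effect with against without Dnmt3a deletion; and for Tet3, -1.91 to -1.63 in DKO, -0.30 to 0.26 in HD mutant against LCD KO and -0.058 to 0.23 in DKO against LCD KO. The pathway counts ran from 2 to 9 in LCD KO, 0 to 2 in HD mutant, and 1 to 2 in DKO and in Dnmt3a KO. They were 3 and 1 in LCD KO and HD mutant with library size alone, where 2129 and 954 of all 11794 genes were called. Without batch they were 0 in LCD KO, 0 in HD mutant, 1 in DKO, 0 in Dnmt3a KO and 0 in labelled Tet3 KO. At an unadjusted edgeR p below 0.05 they were 2, 5, 6, 4 and 2 in that order. Of all 11836 genes, 357, 405, 167, 15 and 47 were called without batch. In LCD KO the pathway counts were 10 in batch 1 alone and 0 in batch 3 alone, where 2851 of 9420 and 88 of 11160 genes were called. The cause of these changes was not tested.

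Same-numbered WT and LCD KO libraries did not deviate together in every pair. Against group means, Pearson r was -0.388 for pair 5, whose libraries come from different batches, and 0.225 to 0.739 for the others. Against means of group and batch, it was -0.320 to -0.017 for pairs 1, 2, 3 and 6. The numbers were therefore not taken to pair samples. With a replicate block in place of batch, Tet3 had -1.62 in LCD KO (called), -0.38 in HD mutant, -2.28 in DKO against Dnmt3a KO and 1.24 in HD mutant against LCD KO (adjusted p = 0.0399); Tet1 had 0.46 in HD mutant, 0.21 in DKO, 0.52 in Dnmt3a KO and -0.68 in labelled Tet3 KO against LCD KO. The pathway counts were then 1 in LCD KO, 8 in HD mutant, 9 in DKO, 6 in Dnmt3a KO and 8 in labelled Tet3 KO. Of all 11794 genes, 818, 3477, 1961, 1437 and 1163 were called in the same order. HD mutant against LCD KO had 3048 genes called.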
